A study of Homo sapiens with 12 samples.

Results

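Mesenchymal genes were followed through hypoxia and knockdown of the hypoxia-inducible factors in LN229, an established human glioblastoma cell line. The 9 genes were the transcription factors SNAI1, SNAI2, TWIST1, ZEB1 and ZEB2, the matrix protein fibronectin (FN1), the intermediate filament protein vimentin (VIM), N-cadherin (CDH2) and the neural adhesion molecule L1CAM. They are well-known mesenchymal genes taken by name, and they were picked with earlier results of these samples known, so their counts of calls are a description. Each is represented by the probe set that the platform annotation pairs with its symbol alone, and where several were paired with it, by the one with the highest mean over the 12 arrays. They are 9 of the 14232 genes that could be named in this way.

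Transcripts were measured on 3 arrays in each of 4 groups: cells in 1% oxygen with HIF1A siRNA, cells in 1% oxygen with HIF2A siRNA, cells in 1% oxygen with a non-targeting control siRNA, and cells in 20% oxygen with that control siRNA. The siRNA was given 24 h after the cells were seeded, the oxygen setting started 48 h after transfection, and it lasted 16 h. Every group had thus been transfected, and no untransfected cells are among the 12 samples. The study asked which hypoxia-regulated genes depend on HIF-1A (gene HIF1A) and which on HIF-2A (gene EPAS1). All groups come from 1 cell line, and no label says whether the 3 samples of a group were cultured apart. The p-values therefore refer to the scatter among these samples, part or all of which may be technical. RNA came from whole cultures, so less transcript per cell and fewer cells making it cannot be told apart.

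SNAI1, SNAI2, TWIST1, ZEB1 and ZEB2 are DNA-binding proteins that can move cells from an epithelial to a mesenchymal state. The SNAI and ZEB proteins repress epithelial adhesion genes such as CDH1 through E-box sequences, while N-cadherin, vimentin and fibronectin are the usual markers of the mesenchymal side. In glioblastoma, whose cells are not epithelial, these factors are known for invasion and for the mesenchymal tumour subtype, and L1CAM for migration and growth of glioma cells.

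FN1 and L1CAM were the 2 genes of the 9 that rose in hypoxia, and the 250 bases before their start sites are shown for that reason. The letters are those of RefSeq (GRCh38.p14), given 5′ to 3′ on the minus strand, from chr2:215436069-215436318 for FN1 and chrX:153875945-153876194 for L1CAM. Capitals mark matches, on either strand, to the HIF core (ACGTG or GCGTG), the E-box bound by SNAI and ZEB proteins (CACCTG) or the cAMP response element (TGACGTCA).
FN1: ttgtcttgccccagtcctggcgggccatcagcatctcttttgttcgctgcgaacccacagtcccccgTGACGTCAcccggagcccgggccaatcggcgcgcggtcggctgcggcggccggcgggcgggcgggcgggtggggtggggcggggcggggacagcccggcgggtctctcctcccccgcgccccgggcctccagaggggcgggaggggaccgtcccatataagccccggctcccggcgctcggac
L1CAM: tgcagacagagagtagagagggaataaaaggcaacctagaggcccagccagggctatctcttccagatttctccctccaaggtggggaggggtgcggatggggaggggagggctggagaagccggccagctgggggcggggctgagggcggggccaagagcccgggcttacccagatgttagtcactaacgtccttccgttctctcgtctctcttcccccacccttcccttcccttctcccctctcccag

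FN1 had a cAMP response element that begins at base -183 from the start, and no other match. L1CAM, which has 2 overlapping start-site windows offset by 70 bases, had no match in either of them. Of all 35116 windows of 300 bases (250 before the start and 50 after it), 48.4% held a HIF core, 20.6% the E-box and 1.85% the cAMP response element. Windows were found for 6 of the 9 genes. VIM had 1 HIF core, which begins at base 9 after the start, and ZEB2 had 4, the nearest to the start at base -51. ZEB1 had a HIF core in 3 of its 7 windows and CDH2 in 1 of its 2. The E-box was present in ZEB1 windows and in no window of ZEB2, FN1, VIM, CDH2 or L1CAM. A match says only that these letters are present in the window.

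Arrays of the same group correlated at r = 0.983 to 0.994 over all probe sets. HIF1A siRNA replicate 3 stood apart: its upper quartile was 7.88 on the log2 scale, against 8.20 to 8.57 on the other 11 arrays, and its SD over all probe sets was 2.35, against 2.45 to 2.56. Calls that rest on this array are given with and without it. HIF1A siRNA replicates 1 and 2 had upper quartiles of 8.22 and 8.20, the lowest of the other 11, and the normoxic arrays 8.47 to 8.57. A difference in scale between groups thus remains without replicate 3. The siRNA labels matched their targets. HIF1A measured 8.20, 9.06 and 7.74 with HIF1A siRNA, against 11.72, 11.40 and 11.26 with control siRNA in hypoxia. EPAS1 measured 7.18, 6.99 and 7.18 with HIF2A siRNA, against 9.74, 9.57 and 9.83 with control siRNA in hypoxia. EPAS1 also fell by 1.48 with HIF1A siRNA against control siRNA in hypoxia (adjusted p = 0.00031), to 8.60, 8.08 and 8.02.

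All 9 genes lay above the lower quartile of their array on all 12 arrays. The epithelial genes CDH1 and EPCAM lay below it on all 12, as did the microglial genes PTPRC and AIF1 and the endothelial genes PECAM1, KDR and TEK. Other genes of the same lists did not. The epithelial KRT18 (mean 9.55) and KRT19 (6.77), the microglial CD14 and TYROBP, and the endothelial VWF, CDH5 and CLDN5 (7.12) were below it on no array. CLDN4, CLDN7 and CSF1R were below it on some arrays. Among astrocyte genes, S100B averaged 10.55 over the 12 arrays and GFAP 6.37, while AQP4 and SLC1A2 lay below the lower quartile on all 12. SLC1A3 lay below the lower quartile on 11 arrays and ALDH1L1 (mean 5.69) on none. No measured neuron or oligodendrocyte marker lay below the lower quartile on all 12 arrays, the highest means being SYT1 (8.39) and OLIG2 (6.82). Levels are compared here only within a gene, because probe sets of different genes do not share a scale.

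In hypoxia with control siRNA against normoxia, 2 of the 9 genes rose, FN1 and L1CAM, and none fell; over all 14232 genes 3.37% were called higher and 8.95% lower. When HIF1A siRNA was set against control siRNA in hypoxia, SNAI2, ZEB1, FN1, CDH2 and L1CAM fell, which is 5 of 9, against 10.2% of all genes called lower and 0.857% called higher. In these 5 genes all 3 arrays with HIF1A siRNA lay below all 3 hypoxic control arrays, as in 19.8% of all genes. With HIF2A siRNA against control siRNA in hypoxia none of the 9 was called by limma, where 0.00703% of all genes, EPAS1 alone, passed the same threshold. At an unadjusted p under 0.05, 1 of the 9 (SNAI2) and 502 of the 14232 genes stood out in that comparison. Arrays did not overlap between those groups for 1 of the 9, again SNAI2, and for 9.36% of all genes. These 3 comparisons share the hypoxic control arrays, so their values are set side by side and not as independent evidence. Without HIF1A siRNA replicate 3, 3 of the 9 were called lower with HIF1A siRNA (SNAI2, FN1 and L1CAM), against 3.79% of all genes. When only the 6 arrays of those groups were fitted, 0 of the 9 passed, against 0.942% of all genes called lower in that fit, with adjusted p of 0.069 for SNAI2, 0.072 for L1CAM and 0.10 for FN1.

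**Figure D1:**
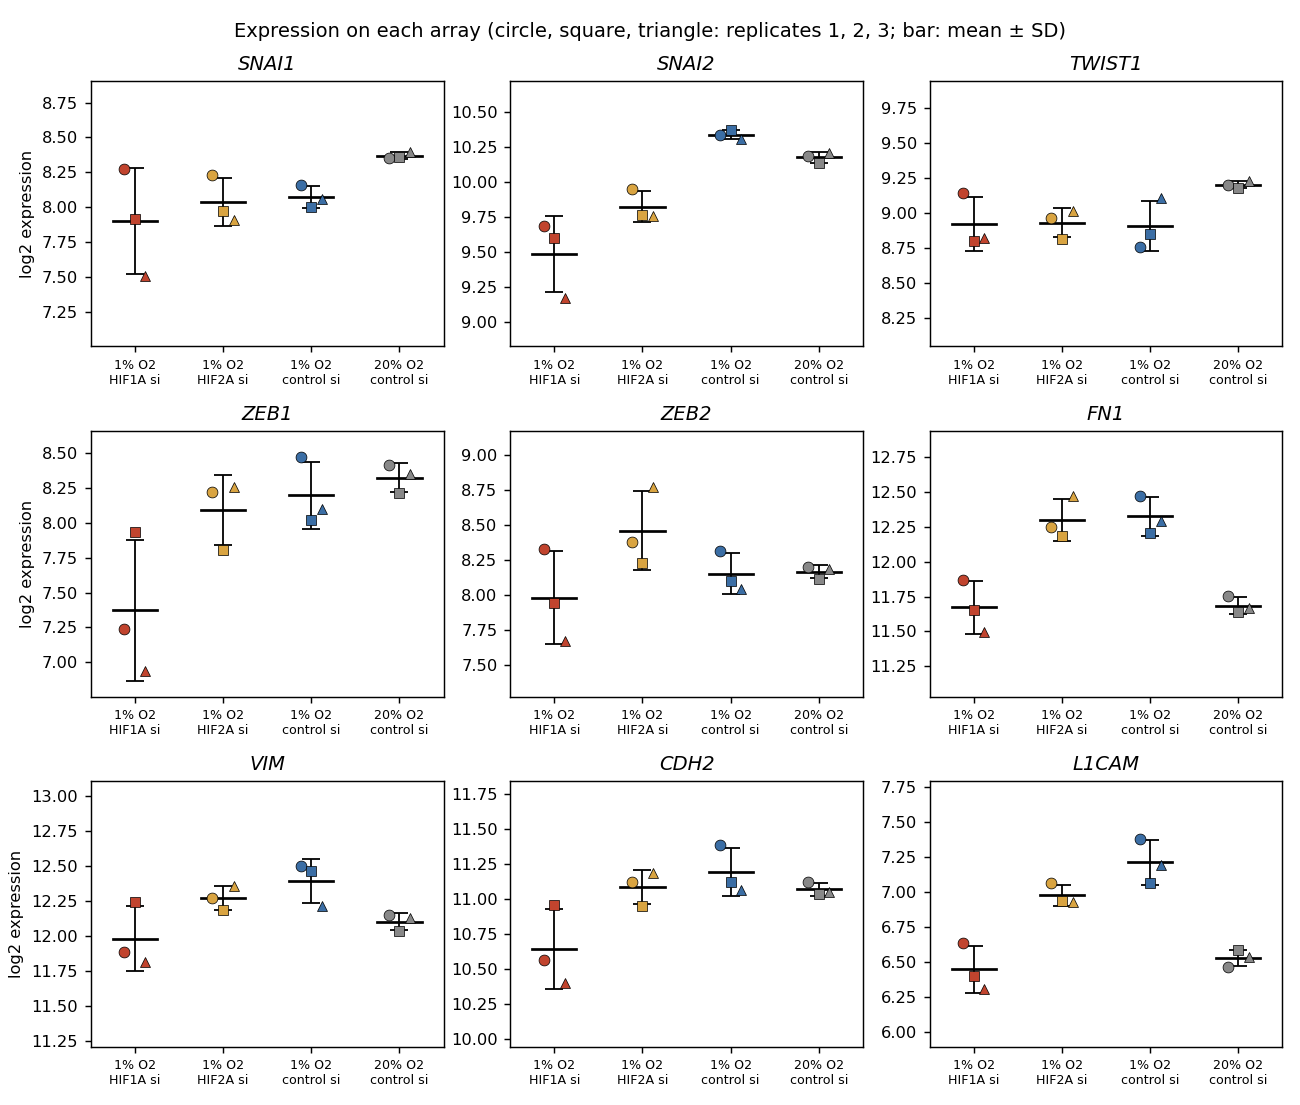
Log2 expression of the 9 genes (vertical axes, each spanning the same range of 1.9 log2 units) on the 12 arrays. Points are arrays, thick bars are group means and whiskers are SD (n = 3 arrays per group). For FN1 the HIF2A siRNA and control siRNA arrays in 1% oxygen lie between 12.18 and 12.47, above every HIF1A siRNA array and every array in 20% oxygen.

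Fibronectin, the matrix glycoprotein that integrins bind, rose in hypoxia and fell with HIF1A siRNA. FN1 measured 11.87, 11.66 and 11.49 with HIF1A siRNA, 12.25, 12.18 and 12.47 with HIF2A siRNA, 12.47, 12.21 and 12.29 with control siRNA in hypoxia, and 11.75, 11.64 and 11.67 in normoxia. The HIF1A siRNA and normoxic arrays overlapped, and all of them lay below the 6 other hypoxic arrays. FN1 rose in hypoxia by 0.64 on the log2 scale (SE 0.12, adjusted p = 0.0071), or 1.56-fold. It fell by 0.65 with HIF1A siRNA against control siRNA in hypoxia (SE 0.12, adjusted p = 0.0096), and without HIF1A siRNA replicate 3 by 0.56 (adjusted p = 0.036). Without hypoxic control replicate 1 that call was lost (adjusted p = 0.052). HIF2A siRNA differed from control siRNA by -0.02, with a 95% interval from -0.29 to 0.25. Against normoxia, the cells with HIF1A siRNA differed by -0.01, with an interval from -0.28 to 0.26. That difference depended on the scaling. It was 0.15 after quantile normalization, 0.18 after cyclic loess and 0.17 after median centring, and was called in none of them.

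FN1 also has a second probe set with that symbol alone, and it was less clear. It measured 7.98, 7.50 and 7.90 with HIF1A siRNA, 8.39, 8.45 and 8.29 with control siRNA in hypoxia, and 8.44, 7.95 and 7.74 in normoxia. The first normoxic array lay among the hypoxic control arrays, and the other normoxic arrays below them. Its change in hypoxia was 0.33 (SE 0.18, adjusted p = 0.29) and its change with HIF1A siRNA against control siRNA was -0.58 (SE 0.18, adjusted p = 0.058), so neither passed the threshold.

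L1CAM, a cell-surface protein of the immunoglobulin family that guides neurites and cell migration, rose in hypoxia and fell with HIF1A siRNA, as FN1 did. It measured 6.63, 6.40 and 6.30 with HIF1A siRNA, 7.06, 6.94 and 6.92 with HIF2A siRNA, 7.38, 7.06 and 7.20 with control siRNA in hypoxia, and 6.46, 6.58 and 6.54 in normoxia. The arrays with HIF1A siRNA overlapped those in normoxia, and the arrays with HIF2A siRNA lay above both and reached the lowest hypoxic control array. L1CAM rose in hypoxia by 0.68 (SE 0.11, adjusted p = 0.0036), or 1.61-fold. With HIF1A siRNA against control siRNA it fell by 0.77 (SE 0.11, adjusted p = 0.0029), and without HIF1A siRNA replicate 3 by 0.70 (adjusted p = 0.012). HIF2A siRNA differed from control siRNA by -0.24, with a 95% interval from -0.49 to 0.01.

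N-cadherin, the calcium-dependent adhesion protein of mesenchymal and neural cells, was called with HIF1A siRNA and not in hypoxia. CDH2 measured 10.57, 10.96 and 10.40 with HIF1A siRNA, 11.12, 10.95 and 11.19 with HIF2A siRNA, 11.39, 11.12 and 11.07 with control siRNA in hypoxia, and 11.12, 11.04 and 11.05 in normoxia. All HIF1A siRNA arrays lay below the hypoxic control arrays, and replicate 2 came within the HIF2A siRNA group. The change in hypoxia was 0.12, with a 95% interval from -0.20 to 0.44, and 0.22 after quantile normalization (adjusted p = 0.24). CDH2 fell by 0.55 with HIF1A siRNA against control siRNA (SE 0.15, adjusted p = 0.037), but without HIF1A siRNA replicate 3 the change was -0.43 and no longer called (adjusted p = 0.13). The call held in 3 of the 12 fits that leave out 1 array, those without HIF1A siRNA replicate 2 or HIF2A siRNA replicates 2 or 3, with adjusted p from 0.0046 to 0.16.

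Vimentin, the main intermediate filament protein of mesenchymal cells, moved in the same directions as FN1 without passing the threshold on the deposited scale. VIM measured 11.89, 12.24 and 11.81 with HIF1A siRNA, 12.27, 12.19 and 12.36 with HIF2A siRNA, 12.50, 12.46 and 12.21 with control siRNA in hypoxia, and 12.15, 12.04 and 12.13 in normoxia. The 3 hypoxic control arrays lay above the 3 normoxic ones, and HIF1A siRNA replicate 2 overlapped the hypoxic control group. The change was 0.29 in hypoxia (SE 0.13, adjusted p = 0.18) and -0.41 with HIF1A siRNA against control siRNA (SE 0.13, adjusted p = 0.059), so neither was called. After quantile normalization both passed, at 0.40 (adjusted p = 0.033) and -0.38 (adjusted p = 0.049). Over the 12 fits that leave out 1 array, the rise in hypoxia was called in 0, with adjusted p from 0.098 to 0.41. The fall with HIF1A siRNA was called in 1 of those fits, with adjusted p from 0.0098 to 0.22.

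Among the transcription factors, SNAI2 (Slug), a zinc-finger repressor of CDH1, separated all 4 groups. SNAI2 measured 9.68, 9.60 and 9.17 with HIF1A siRNA, 9.95, 9.76 and 9.76 with HIF2A siRNA, 10.34, 10.37 and 10.30 with control siRNA in hypoxia, and 10.19, 10.13 and 10.21 in normoxia. The groups did not overlap: HIF1A siRNA was lowest, then HIF2A siRNA, then normoxia, and the hypoxic control was highest. SNAI2 fell by 0.85 with HIF1A siRNA against control siRNA (SE 0.13, adjusted p = 0.0029), or 1.81-fold, and by 0.70 without HIF1A siRNA replicate 3 (adjusted p = 0.0037). With HIF2A siRNA the change from control siRNA was -0.51 (SE 0.13), with a 95% interval from -0.79 to -0.23. That change had an unadjusted p of 0.0020 and an adjusted p of 0.82 over all genes, so it was not called. The 2 siRNAs differed by -0.34 for SNAI2, HIF1A minus HIF2A (SE 0.13, adjusted p = 0.10), which also missed the threshold.

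SNAI2 changed by 0.16 in hypoxia with control siRNA on the deposited scale (SE 0.13, adjusted p = 0.51), although all 3 hypoxic control arrays lay above all 3 normoxic ones. That change was 0.33 after quantile normalization (adjusted p = 0.034) and 0.32 after cyclic loess (adjusted p = 0.022), where it was called. In hypoxia 6 of the 9 genes had arrays that did not overlap with normoxia, against 38.4% of all genes. SNAI2, FN1, VIM and L1CAM lay above, and SNAI1 and TWIST1 below.

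ZEB1, a zinc-finger and homeodomain repressor of epithelial genes, had the most uneven arrays with HIF1A siRNA. It measured 7.24, 7.93 and 6.94 with HIF1A siRNA, 8.22, 7.80 and 8.26 with HIF2A siRNA, 8.47, 8.02 and 8.10 with control siRNA in hypoxia, and 8.41, 8.21 and 8.35 in normoxia. HIF1A siRNA replicate 2 lay just below the lowest hypoxic control array and above 1 HIF2A siRNA array. ZEB1 fell by 0.82 with HIF1A siRNA against control siRNA (SE 0.23, adjusted p = 0.043), and without HIF1A siRNA replicate 3 the change was -0.61 and no longer called (adjusted p = 0.15). The call held in only 2 of the 12 fits that leave out 1 array, those without HIF1A siRNA replicate 2 or HIF2A siRNA replicate 2, with adjusted p from 0.0032 to 0.18. In hypoxia it changed by -0.13, with a 95% interval from -0.63 to 0.38.

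SNAI1 (Snail), TWIST1 and ZEB2 were not called in hypoxia or with either siRNA against control siRNA. SNAI1, the founding Snail repressor, measured 8.27, 7.92 and 7.51 with HIF1A siRNA, 8.23, 7.98 and 7.91 with HIF2A siRNA, 8.16, 8.0 and 8.06 with control siRNA in hypoxia, and 8.35, 8.36 and 8.40 in normoxia. Every hypoxic array lay below every normoxic one, whichever siRNA was used, and the 3 hypoxic groups overlapped. Its change in hypoxia was -0.30, with a 95% interval from -0.66 to 0.07 (adjusted p = 0.31).

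TWIST1, a basic helix-loop-helix factor known in other cells as a direct HIF-1 target, had the same arrangement. It measured 9.15, 8.80 and 8.82 with HIF1A siRNA, 8.97, 8.81 and 9.02 with HIF2A siRNA, 8.76, 8.85 and 9.11 with control siRNA in hypoxia, and 9.21, 9.18 and 9.23 in normoxia. The normoxic arrays were the 3 highest of the 12. The change in hypoxia was -0.30, with a 95% interval from -0.57 to -0.03 and an adjusted p of 0.15, and the changes with HIF1A siRNA and HIF2A siRNA against control siRNA were 0.02 and 0.03. After quantile normalization the change in hypoxia was -0.13 (adjusted p = 0.59).

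ZEB2, the paralog of ZEB1, measured 8.33, 7.94 and 7.67 with HIF1A siRNA, 8.38, 8.23 and 8.78 with HIF2A siRNA, 8.32, 8.10 and 8.04 with control siRNA in hypoxia, and 8.20, 8.12 and 8.19 in normoxia. Its highest array was HIF2A siRNA replicate 3 and its lowest HIF1A siRNA replicate 3, and all pairs of groups overlapped except HIF2A siRNA, which lay above normoxia. The change was -0.01 in hypoxia, -0.17 with HIF1A siRNA and 0.31 with HIF2A siRNA against control siRNA, with 95% intervals from -0.40 to 0.37, from -0.56 to 0.22 and from -0.08 to 0.70. No alternative setting called ZEB2 in these 3 comparisons.

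**Figure D2:**
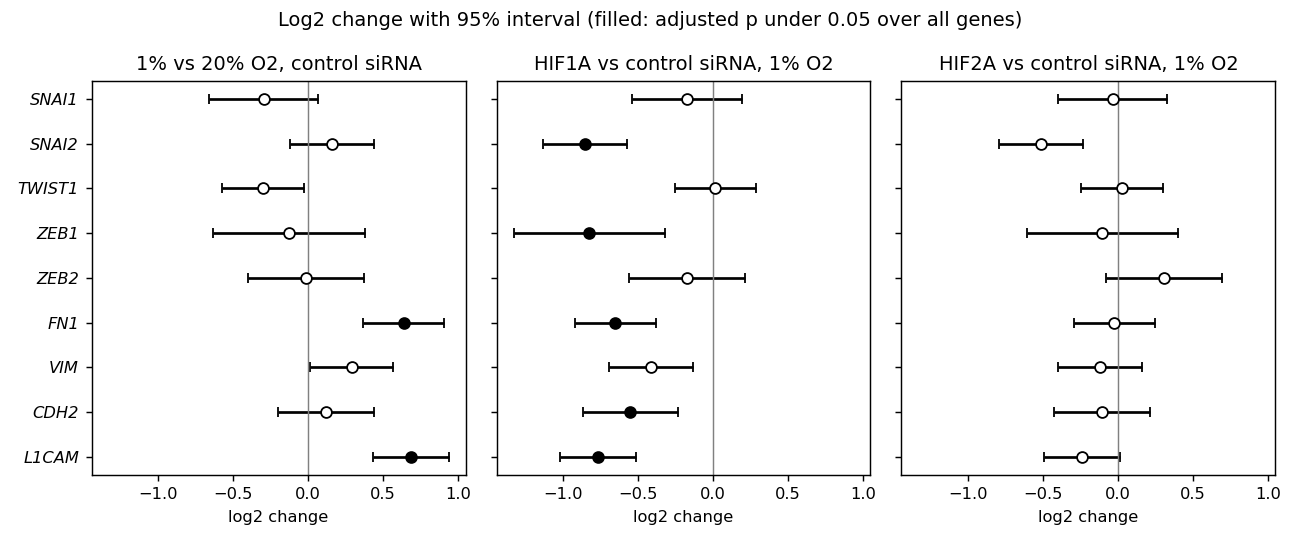
Log2 change of each gene (horizontal axes) in hypoxia against normoxia and with HIF1A siRNA or HIF2A siRNA against control siRNA in hypoxia, with limma's 95% intervals. Filled points passed an adjusted p of 0.05 over 14232 genes: FN1 and L1CAM in the first panel, and SNAI2, ZEB1, FN1, CDH2 and L1CAM in the second.

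The same arrays give 3 further comparisons. Those against normoxia differ in oxygen and in siRNA together. With HIF1A siRNA in hypoxia against normoxia, 4 of the 9 genes fell, against 30.4% of all genes: ZEB1 by 0.95 (adjusted p = 0.011), SNAI2 by 0.69 (0.0048), SNAI1 by 0.47 (0.047) and CDH2 by 0.43 (0.041). Without HIF1A siRNA replicate 3, ZEB1 and SNAI2 were still called, at -0.74 (adjusted p = 0.043) and -0.53 (adjusted p = 0.0093), while SNAI1 and CDH2 were not. The calls of SNAI1 and CDH2 were also lost after quantile normalization, where their changes were -0.06 and -0.17. On the deposited scale both lay close to the median change of genes of like level, -0.45 for SNAI1 and -0.39 for CDH2. Over the 12 fits that leave out 1 array, the call of SNAI1 held in 1, without HIF1A siRNA replicate 1, and that of CDH2 in 4, without HIF1A siRNA replicate 2, HIF2A siRNA replicates 2 or 3, or hypoxic control replicate 1.

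With HIF2A siRNA in hypoxia against normoxia, FN1 rose by 0.61 (adjusted p = 0.010) and L1CAM by 0.45 (adjusted p = 0.033), which is 2 of 9 against 2.85% of all genes called higher. Set directly against HIF2A siRNA, with HIF1A siRNA FN1 fell by 0.63 (adjusted p = 0.0137) and L1CAM by 0.53 (adjusted p = 0.020), which is 2 of 9 against 8.53% of all genes called lower. Without HIF1A siRNA replicate 3, FN1 kept its call (-0.54, adjusted p = 0.049) and L1CAM did not (-0.46, adjusted p = 0.072). Both calls were also lost without HIF2A siRNA replicate 1 or replicate 3. The rise of L1CAM against normoxia was lost without any 1 of the HIF2A siRNA arrays, any 1 of the normoxic arrays or hypoxic control replicate 3, with adjusted p up to 0.13.

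Changes in the whole table depended on the level of a gene, which bears on genes as bright as FN1 and VIM. With HIF1A siRNA against control siRNA the median change was 0.06 to 0.12 in the 4 dimmest deciles of genes, -0.28 in decile 9 and -0.22 in decile 10, the brightest. In hypoxia against normoxia it was -0.17 at its lowest, in decile 9, and with HIF2A siRNA it stayed between -0.01 and 0.01 in every decile. SNAI2, FN1, VIM and CDH2 belong to decile 10, TWIST1 to decile 9, SNAI1 and ZEB2 to decile 8, ZEB1 to decile 7 and L1CAM to decile 5.

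Set against the median of its own decile, FN1 stood 0.78 higher in hypoxia and at -0.43 with HIF1A siRNA, and L1CAM stood 0.69 higher and at -0.76. With HIF1A siRNA SNAI2 stood at -0.64 from the median of its decile, ZEB1 at -0.62, CDH2 at -0.33 and VIM at -0.19. TWIST1 stood 0.30 above the median of its decile with HIF1A siRNA, and SNAI1 and ZEB2 0.10 above theirs. With HIF1A siRNA in hypoxia against normoxia the decile medians went down to -0.49, in decile 9. In that comparison SNAI1 stood at -0.02 from the median of its decile, CDH2 and L1CAM at -0.04, SNAI2 at -0.31 and ZEB1 at -0.57. FN1 stood 0.37 above the median of its decile there, VIM and ZEB2 0.26 and TWIST1 0.21. The narrow range of HIF1A siRNA replicate 3 moves with this pattern. The decile medians were not computed without that array, and its part in the pattern was not tested.

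**Figure D3:**
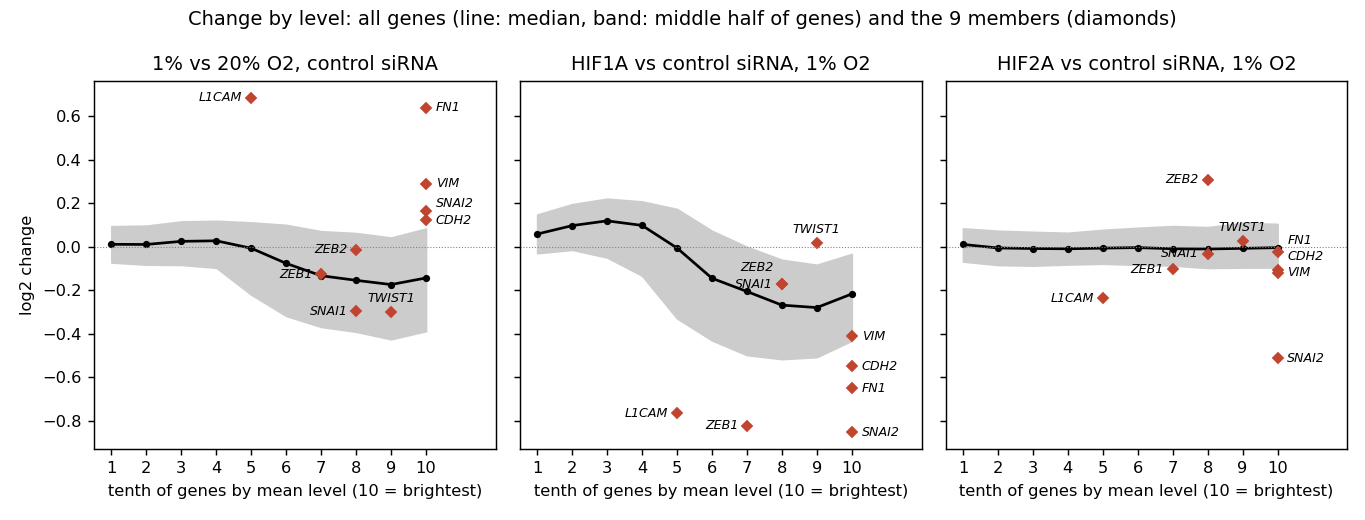
Log2 change (vertical axes) against the decile of genes by mean level (horizontal axes, 10 brightest) in 3 comparisons. The line is the median of all 14232 genes, the band runs from the lower to the upper quartile, and diamonds are the 9 genes. With HIF1A siRNA the line lies at -0.22 in the brightest decile, and SNAI2, FN1 and CDH2 lie below the band there.

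Genes that act with the 9 were followed in lists. Of 15 measured fibronectin receptors and partners, 4 rose in hypoxia and none fell, with a median change of 0.20, against -0.03 over all genes and 3.37% of all genes called higher. They were TGM2 (1.07), a transglutaminase that crosslinks fibronectin, FBN1 (0.91), fibrillin-1 of the matrix microfibrils, and the integrin subunits ITGB3 (0.75) and ITGA5 (0.70), which form receptors for fibronectin. Under HIF1A siRNA 7 of the 15 fell against control siRNA and none rose, with a median of -0.40 against -0.05 over all genes and 10.2% of all genes called lower. Set against the median of its own decile, each gene of that list differed by -0.22 at the list median with HIF1A siRNA and by 0.31 in hypoxia. The 5 largest falls were TGM2 (-1.36), FBN1 (-0.75), ITGA9 (-0.62), ITGA5 (-0.53) and ITGB5 (-0.48). Without HIF1A siRNA replicate 3 only TGM2 (-1.20) and ITGA9 (-0.55) of the 15 were called lower, and the median was -0.28.

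TGM2 measured 8.93, 8.89 and 8.41 with HIF1A siRNA, 9.68, 9.43 and 9.33 with HIF2A siRNA, 10.04, 10.16 and 10.11 with control siRNA in hypoxia, and 8.96, 9.01 and 9.14 in normoxia. The hypoxic control arrays were the 3 highest, the HIF2A siRNA arrays followed without overlap, and the other groups lay below them. The fall of TGM2 with HIF1A siRNA was called in all 21 alternative settings. ITGA5, the partner of integrin beta-1 in the main fibronectin receptor, measured 10.37, 10.34 and 9.92 with HIF1A siRNA, 10.80, 10.52 and 10.56 with HIF2A siRNA, 10.82, 10.70 and 10.71 with control siRNA in hypoxia, and 10.01, 10.03 and 10.08 in normoxia. Its arrays with HIF1A siRNA lay below those of both other hypoxic groups and overlapped normoxia. Its fall with HIF1A siRNA was called in 16 of those settings.

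Of 15 measured relatives and partners of L1, 1 rose in hypoxia, the neural cell adhesion molecule NCAM1 (0.54), and none fell. Over all genes 3.37% were called higher in that comparison and 8.95% lower. With HIF1A siRNA 4 of the 15 fell and none rose, against 10.2% of all genes called lower. The median change of the list was -0.39, or -0.22 against the deciles of its genes. The 4 were RDX (-1.06), radixin, which ties membrane proteins to actin, ANK3 (-0.77), an ankyrin that anchors L1-family proteins, NCAM1 (-0.65) and NFASC (-0.37), neurofascin of the L1 family. NCAM1 measured 8.70, 8.87 and 8.40 with HIF1A siRNA, 9.32, 9.14 and 9.23 with HIF2A siRNA, 9.37, 9.26 and 9.29 with control siRNA in hypoxia, and 8.79, 8.79 and 8.71 in normoxia. The 6 arrays with HIF2A siRNA or control siRNA in hypoxia lay above the 6 others. RDX, ANK3 and NCAM1 were also called lower without HIF1A siRNA replicate 3, and NFASC was not.

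The 15 measured corepressors and turnover factors of the SNAI and ZEB proteins moved in both directions. In hypoxia 1 rose and 2 fell, against 3.37% of all genes called higher and 8.95% lower. LOXL2, a lysyl oxidase-like enzyme that stabilizes SNAI1, rose by 0.98, while EZH2, a histone methyltransferase, fell by 1.05 and HDAC2, a histone deacetylase, by 0.54. With HIF1A siRNA 4 of the 15 fell, against 10.2% of all genes called lower. They were RCOR1 (-0.90), a corepressor, LOXL2 (-0.53), FBXL14 (-0.51), a ubiquitin ligase subunit that targets SNAI1, and SIN3A (-0.46), a deacetylase scaffold. LOXL2 measured 11.41, 11.28 and 11.03 with HIF1A siRNA, 11.71, 11.55 and 11.60 with HIF2A siRNA, 11.86, 11.80 and 11.66 with control siRNA in hypoxia, and 10.74, 10.78 and 10.88 in normoxia. Its HIF1A siRNA arrays thus lay between the hypoxic control and the normoxic arrays. LOXL2 alone of the 4 was called lower without HIF1A siRNA replicate 3 (-0.43, adjusted p = 0.047). Against the deciles of its genes the median of this list was -0.03 with HIF1A siRNA.

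Of 17 measured mesenchymal surface, matrix and cytoskeleton genes, 2 rose in hypoxia, the matrix protein tenascin C (TNC, 0.45) and the receptor kinase AXL (0.39), and none fell. Over all genes 3.37% were called higher in hypoxia and 8.95% lower. With HIF1A siRNA 4 of the 17 fell and none rose, against 10.2% of all genes called lower. They were periostin (POSTN, -0.85), cadherin-11 (CDH11, -0.76), the urokinase receptor PLAUR (-0.59) and AXL (-0.55). Without HIF1A siRNA replicate 3, CDH11 (-0.60), PLAUR (-0.41) and AXL (-0.48) were called and POSTN (-0.68, adjusted p = 0.16) was not. The median change of the list was -0.12 with HIF1A siRNA and 0.07 in hypoxia, and against the deciles of its genes it was 0.10 and 0.16. Of 15 other regulators of the epithelial-mesenchymal transition, ID3, an inhibitor of helix-loop-helix factors, fell in hypoxia by 0.77, and TCF4, a helix-loop-helix partner, fell with HIF1A siRNA by 0.71. That is 1 of 15 in each comparison, close to the 8.95% and 10.2% of all genes called lower. The change of TCF4 was -0.52 without HIF1A siRNA replicate 3, and not called (adjusted p = 0.072).

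The TGF-beta pathway, a known inducer of the 5 factors, had 17 measured genes. In hypoxia TGFBR1, its type I receptor, rose by 0.64 and TGFBR3, a coreceptor, fell by 0.70. That is 1 of 17 in each direction, against 3.37% of all genes called higher and 8.95% lower. With HIF1A siRNA TGFBR1 fell by 1.06 and SMAD2, a signal transducer, by 0.69, which is 2 of 17 and close to the 10.2% of all genes called lower. TGFBR1 was also called without HIF1A siRNA replicate 3 (-0.87, adjusted p = 0.0080), and SMAD2 was not (-0.53, adjusted p = 0.16). TGFBR1 measured 9.37, 9.66 and 8.95 with HIF1A siRNA, 10.27, 10.15 and 10.32 with HIF2A siRNA, 10.61, 10.29 and 10.26 with control siRNA in hypoxia, and 9.85, 9.73 and 9.67 in normoxia. Its HIF1A siRNA arrays were the 3 lowest of the 12. The call of SMAD2 was lost in 18 of 21 alternative settings.

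Intermediate filament genes, 10 measured, had 2 rises in hypoxia, synemin (SYNM, 0.87) and the linker plectin (PLEC, 0.62), and 1 fall, nestin (NES, -0.41), a neural stem cell filament. Over all genes 3.37% were called higher in hypoxia and 8.95% lower. None of the 10 was called with HIF1A siRNA, against 10.2% of all genes called lower and 0.857% higher. Of 12 cadherins and catenins only beta-catenin (CTNNB1, -0.53) was called, lower in hypoxia, which is close to the share of all genes called lower. Of 18 measured epithelial genes that the factors repress in other cells, the membrane mucin MUC1 rose in hypoxia by 0.65, and MUC1 (-0.39) and the junction protein TJP1 (-0.64) fell with HIF1A siRNA. These 2 falls among 18 genes are close to the 10.2% of all genes called lower, and without HIF1A siRNA replicate 3 neither was called (-0.40 and -0.48). CDH1 changed by 0.07 in hypoxia (adjusted p = 0.67) and by 0.08 with HIF1A siRNA (adjusted p = 0.48), at levels below the lower quartile of its arrays. With HIF2A siRNA against control siRNA none of the genes of these 9 lists was called.

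**Figure D4:**
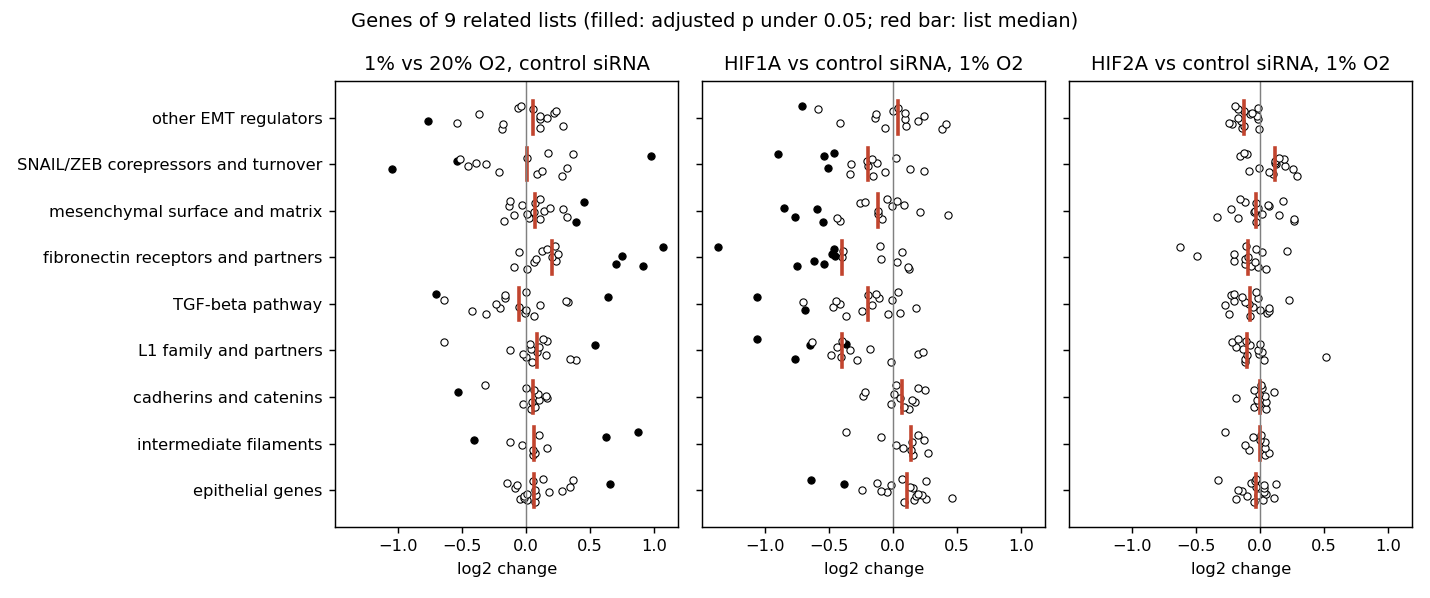
Log2 change (horizontal axes) of each measured gene of 9 lists related to the 9 mesenchymal genes, in 3 comparisons. Filled points passed an adjusted p of 0.05 over all genes, and red bars are list medians. The fibronectin list has 4 called rises in hypoxia and 7 called falls with HIF1A siRNA, and no filled point appears with HIF2A siRNA.

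Of 6 measured markers of fibroblasts and pericytes, 2 were called in hypoxia and 2 with HIF1A siRNA. The median change of the list was 0.04 in hypoxia and -0.18 with HIF1A siRNA. Against the deciles of its genes it was 0.09 and -0.09. In hypoxia COL1A1 (0.77) and RGS5 (0.76) rose, and with HIF1A siRNA RGS5 (-1.92) and DCN (-0.65) fell, the others not being called in either comparison. Over all genes 3.37% were called higher and 8.95% lower in hypoxia, and 0.857% higher and 10.2% lower with HIF1A siRNA. RGS5 was also called without HIF1A siRNA replicate 3 (-1.79), and DCN was not (-0.51, adjusted p = 0.058). Among 6 astrocyte genes S100B fell in hypoxia by 0.63 and rose with HIF1A siRNA by 0.85 (0.95 without HIF1A siRNA replicate 3), and the others were not called. The mean log2 level of the 6 fibroblast and pericyte markers was 6.43 to 6.80 over the HIF1A siRNA arrays and 7.06 to 7.30 over the HIF2A siRNA arrays. It was 7.07 to 7.17 over the hypoxic control arrays and 6.86 to 6.99 over the normoxic arrays. No gene of that list lay below the lower quartile on all 12 arrays, and the part of these markers in the changes of the mesenchymal genes was not tested.

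Profiles close to each called gene were found by the root mean square difference of the 12 log2 values after centring each gene on its own mean. The 3 closest to FN1 were ABCC1, INHBA and C5orf46, at 0.07 to 0.09, where FN1 itself varied by 0.34. The 3 closest to L1CAM were IGF1R, UBE2O and ZMYM3, at 0.09 to 0.10 against 0.33. For SNAI2 they were PFKFB3, VAMP2 and AACS, at 0.06 to 0.12 against 0.35. PFKFB3 changed by -0.82 with HIF1A siRNA and -0.51 with HIF2A siRNA against control siRNA, next to -0.85 and -0.51 for SNAI2. For ZEB1 they were C2CD5, FAM204A and ZFAND5, for CDH2 LONP2, STK4 and STAU1, and for SNAI1 ZNF574, DRG2 and NCS1, at 0.03 to 0.07. Likeness over 12 arrays of 4 groups is a description of these samples only.

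**Figure D5:**
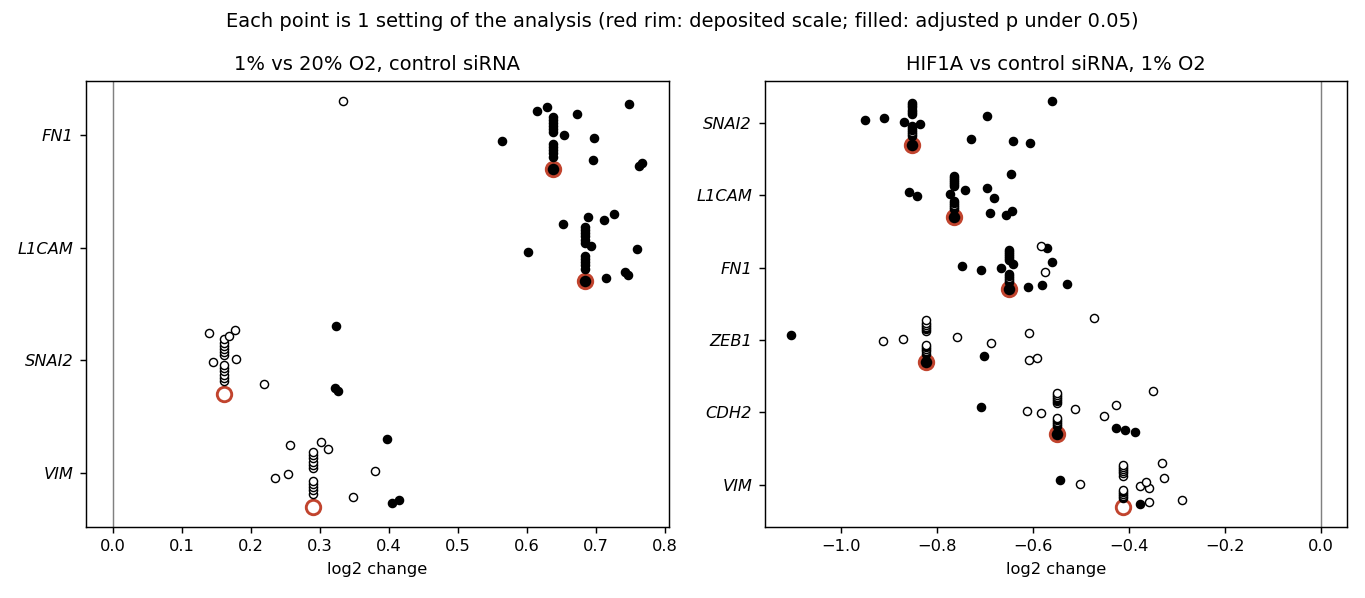
Log2 change (horizontal axes) of selected genes under every setting tried, each point being 1 setting. Points are filled where the adjusted p was under 0.05 and rimmed in red for the deposited scale. In hypoxia L1CAM is filled in every setting and FN1 in all but its second probe set (0.33). With HIF1A siRNA every gene shown has points on both sides of the threshold. SNAI2 and L1CAM were each called in 20 of 21 alternative settings and FN1 in 19 of 22. CDH2 was called in 9 of 21, ZEB1 in 5 and VIM in 4.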

How the data were processed

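The deposited matrix holds 1 value per probe set and array from an Affymetrix whole-transcript assay. The authors' values were treated as log2 expression, a scale read from their range of 1.14 to 14.3, which is inferred and not stated. Partek and the build hg18 are named per the submitters' processing notes, and the sources used here do not give the background correction, summarization or normalization. No rescaling preceded the tests.

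Of 22011 probe sets, 14432 had 1 symbol, 2408 several and 5171 none, and 14404 of the single-symbol gene IDs were found in RefSeq. A mean per group was fitted over all 12 arrays with limma 3.58.1 in R 4.3.3 (lmFit, eBayes), with Benjamini-Hochberg adjustment over 14232 genes in each of 6 comparisons and calls at an adjusted p under 0.05. Errors are limma's SE with n = 3 arrays per group, whose number limits the precision. The fit was checked on simulated data. Over the 6 comparisons it recovered 43.3% to 59.7% of 1.5-fold changes, 80.6% to 91.0% of 2-fold changes and 97.0% to 100% of 4-fold changes. The simulated noise was drawn gene by gene, without differences in scale between arrays, so it does not cover the scale differences described above. Tables were joined with pandas 2.3.3 and the R package data.table (version 1.17.8) and plotted with matplotlib 3.10.9.

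The genes, lists and tests were chosen with earlier results of these data known. Named are the 9 genes, HIF1A and EPAS1, up to 5 called genes per list and direction, the 3 closest profiles of each gene called in any comparison, and list or marker genes that describe the cells. Alternatives were 3 scalings, a filter on dim genes, adjustment over all probe sets, 2-group fits, a variance trend, a replicate block, the second FN1 probe set and leaving out each array.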

Additional observations from a re-analysis of the deposited data

How the results depend on the processing

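The rises of FN1 and L1CAM in hypoxia and the falls of SNAI2, FN1 and L1CAM with HIF1A siRNA against control siRNA were called under all 3 other scalings. Of the 9 genes, the number called in hypoxia against normoxia was 2, and 4 after quantile normalization, cyclic loess, or quantile normalization without HIF1A siRNA replicate 3 (chosen after seeing the data), and 1 with the second FN1 probe set. With HIF1A siRNA against control siRNA it was 5, but 0 when only the arrays of the 2 groups were fitted (adjusted p = 0.069 for SNAI2, 0.072 for L1CAM, 0.10 for FN1), and 3 with a replicate block or with quantile normalization without HIF1A siRNA replicate 3. With HIF1A siRNA against normoxia it was 4, but 2 under each of the 3 scalings and the 2-group fit, and 0 with quantile normalization without that array. With HIF2A siRNA against normoxia it was 2, and 3 after quantile normalization, cyclic loess and in the 2-group fit, and 1 with the second FN1 probe set. Between the siRNAs it was 2, 4 among genes above the lower quartile, 0 in the 2-group fit and 1 with quantile normalization without that array. With HIF2A siRNA against control siRNA it was 0 throughout. Leaving out 1 array at a time gave, in this order, 2 to 2, 2 to 6, 2 to 4, 1 to 3, 0 to 5 and 0 to 0. Arrays of the same number were not clearly more alike across groups. Over 18 same-numbered pairs the correlation of deviations ran from -0.49 to 0.60 (median 0.063). Over 36 pairs of unlike number it ran from -0.64 to 0.62 (median -0.029). Only 4 of 12 arrays correlated best with their own number. With 3 arrays per group this cannot show whether samples of the same number shared a culture or batch. The replicate block took the calls of ZEB1 (adjusted p = 0.068) and CDH2 (0.056) with HIF1A siRNA against control siRNA, and that of CDH2 with HIF1A siRNA against normoxia (0.056). It changed no other call among the 9 genes. FN1 with HIF1A siRNA against control siRNA lost its call without hypoxia control replicate 1 (adjusted p = 0.052). Over all genes, rises and falls numbered 480 and 1274 in hypoxia, against 946 and 1200 after quantile normalization, 1059 and 1289 by cyclic loess and 767 and 1438 by median centring. With HIF1A siRNA against control siRNA they numbered 122 and 1451, against 726 and 1124, 545 and 1183, and 509 and 1272 in the same order, and 3 and 134 in the 2-group fit. Leaving out 1 array moved them as well: falls with HIF1A siRNA numbered 366 without hypoxic control replicate 1 (rises 24), 741 without hypoxic control replicate 3, 539 without HIF1A siRNA replicate 3 and 2450 without HIF1A siRNA replicate 2 (rises 198), the other 8 fits giving falls of 952 to 1431. In hypoxia falls ran from 503 without hypoxic control replicate 2 to 1878 without HIF1A siRNA replicate 3, with 517, 814 and 557 without normoxic replicates 1, 2 and 3, and rises from 279 without normoxic replicate 3 to 587. With HIF1A siRNA against control siRNA, quantile normalization moved the median change of all genes to 0.070, against -0.05 on the deposited scale. The causes were not tested.

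Called list genes numbered 18 in hypoxia (30 quantile, 35 cyclic loess, 33 quantile without that array), 24 with HIF1A siRNA against control siRNA (1 in the 2-group fit, 9), 35 against normoxia (56 with arrays centred on their medians, 18 in the 2-group fit, 18), 17 with HIF2A siRNA against normoxia (26) and 18 between the siRNAs (0 in the 2-group fit, 3), the last value in each being quantile normalization without that array. Leaving out 1 array gave 11 to 25, 7 to 30, 13 to 44, 7 to 20 and 1 to 29.

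Changes that were not called and turned sign are given for quantile normalization, cyclic loess (loess), median centring (median) and quantile normalization without HIF1A siRNA replicate 3 (added). With HIF1A siRNA against normoxia they were FN1 0.15 (quantile), 0.18 (loess), 0.17 (median) and 0.18 (added), L1CAM 0.057 (quantile), 0.056 (loess), 0.098 (median) and 0.079 (added), TWIST1 0.17 (quantile), 0.15 (loess) and 0.11 (added), VIM 0.027 (quantile), 0.056 (loess), 0.057 (median) and 0.067 (added) and ZEB2 0.22 (quantile), 0.22 (loess) and 0.27 (added). For HIF1A siRNA against control siRNA they were SNAI1 0.088 (quantile), 0.068 (loess) and 0.18 (added) and ZEB2 0.097 (quantile), 0.075 (loess) and 0.15 (added). Between the siRNAs, HIF1A minus HIF2A, they were SNAI1 0.12 (quantile), 0.10 (loess) and 0.21 (added) and TWIST1 0.28 (quantile), 0.26 (loess), 0.13 (median) and 0.22 (added). In hypoxia with control siRNA they were ZEB1 0.017 (quantile), 0.018 (loess) and 0.017 (added) and ZEB2 0.12 (quantile), 0.14 (loess), 0.043 (median) and 0.12 (added). The second FN1 probe set gave 0.051 with HIF2A siRNA against control siRNA. A called change also turned sign: SNAI1 with HIF1A siRNA against normoxia, called lower on the deposited scale (-0.47), was 0.032 (added). Leaving out 1 array at a time also turned uncalled changes. For HIF2A siRNA against normoxia the range was -0.035 to 0.086 for CDH2. For HIF2A siRNA against control siRNA the range was -0.11 to 0.051 for FN1, -0.13 to 0.031 for SNAI1, -0.047 to 0.13 for TWIST1 and -0.19 to 0.041 for ZEB1. For HIF1A siRNA against normoxia the range was -0.11 to 0.077 for FN1. For HIF1A against HIF2A siRNA the range was -0.32 to 0.056 for SNAI1 and -0.12 to 0.053 for TWIST1. For HIF1A siRNA against control siRNA the range was -0.36 to 0.022 for SNAI1 and -0.095 to 0.12 for TWIST1. For hypoxia against normoxia the range was -0.096 to 0.040 for ZEB2.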
